A study of Mus musculus with 23 samples.

Results

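The genes described here are 46 interferon-stimulated genes of the mouse, taken from a fixed list of symbols that leaves out the guanylate-binding proteins and the immunity-related GTPases. They were found in heart RNA by matching gene identifiers to symbols, and all 46 were among the 55487 gene identifiers quantified. All 46 also passed the filter on low counts that left 15732 genes for testing. Poly-A RNA was sequenced from whole hearts of 10-week-old wild-type females of the inbred strain C57BL/6J. The groups were LPS day 1 and LPS day 7, hearts taken 1 and 7 days after 2.5 mg/kg of lipopolysaccharide (LPS, the ligand of Toll-like receptor 4 from the outer membrane of Gram-negative bacteria), with an untreated LPS baseline. The other arm held ISO day 1 and ISO day 7, hearts taken the same numbers of days after 300 mg/kg of isoproterenol (ISO, which stimulates beta-adrenergic receptors), with an untreated ISO baseline of its own. There were 3 libraries at ISO day 1 and 4 in each of the other 5 groups, 23 in all, and the design describes separate mice. All values come from tissue in which many cell types are mixed, and no vehicle-treated group was used here.

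Interferon-stimulated genes are switched on when type I, II or III interferons bind their receptors and JAK kinases phosphorylate STAT proteins. STAT2 and IRF9 are parts of the complex ISGF3, which binds interferon-stimulated response elements (ISRE), and STAT dimers bind gamma-activated sites (GAS). IRF3 and IRF7 can act on many of the same genes, and Toll-like receptor 4 reaches IRF3 through the adaptor TRIF. The proteins sense foreign RNA, block viral translation and entry, modify proteins with ISG15 or ADP-ribose, and feed back on the pathway. In the heart they are known from viral myocarditis and from inflammation after tissue injury.

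Of the 46 genes, 36 had an entry in the RefSeq promoter table (build GRCm38.p6). The 250 bases upstream of the transcription start were searched on both strands for the ISRE core (TTTC, any 2 bases, then TTTC) and the GAS core TTCNNNGAA, and matches may overlap each other. The ISRE core was present in 14 of the 36 promoters (38.9%), against 3.46% of all 27025 genes in the table. The GAS core was present in 5 of the 36 (13.9%), against 8.13% of all genes. A match is a description of the letters, not a binding site or a cause. The sequences below are the 4 members with the largest LPS day 1 change, then the 4 with the smallest, among members in the table. They run 5′ to 3′ on the gene's own strand and end at the last base before the start, with motif matches in capitals.
Ifit3b, chr19:34607707-34607956 (+): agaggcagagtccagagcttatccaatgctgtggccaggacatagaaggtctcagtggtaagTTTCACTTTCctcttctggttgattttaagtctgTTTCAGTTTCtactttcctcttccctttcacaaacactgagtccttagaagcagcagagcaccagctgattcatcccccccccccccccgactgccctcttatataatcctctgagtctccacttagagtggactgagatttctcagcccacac
Ifit3, chr19:34583279-34583528 (+): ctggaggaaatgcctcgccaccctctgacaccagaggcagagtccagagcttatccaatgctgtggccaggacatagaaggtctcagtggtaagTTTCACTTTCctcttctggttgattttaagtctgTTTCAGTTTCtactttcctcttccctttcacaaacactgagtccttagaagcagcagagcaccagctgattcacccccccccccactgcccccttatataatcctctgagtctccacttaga
Ifit1, chr19:34640639-34640888 (+): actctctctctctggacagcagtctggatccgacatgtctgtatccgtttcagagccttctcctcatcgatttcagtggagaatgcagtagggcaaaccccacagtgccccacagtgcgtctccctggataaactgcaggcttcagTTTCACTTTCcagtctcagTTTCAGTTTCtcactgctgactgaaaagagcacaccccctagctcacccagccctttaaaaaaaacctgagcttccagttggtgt
Irf7, chr7:141266425-141266674 (-): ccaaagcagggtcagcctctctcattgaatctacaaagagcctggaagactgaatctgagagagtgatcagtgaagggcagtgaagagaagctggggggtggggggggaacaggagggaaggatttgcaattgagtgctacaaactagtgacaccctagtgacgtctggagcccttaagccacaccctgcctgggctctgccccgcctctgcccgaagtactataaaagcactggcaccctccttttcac
Irf9, chr14:55603735-55603984 (+): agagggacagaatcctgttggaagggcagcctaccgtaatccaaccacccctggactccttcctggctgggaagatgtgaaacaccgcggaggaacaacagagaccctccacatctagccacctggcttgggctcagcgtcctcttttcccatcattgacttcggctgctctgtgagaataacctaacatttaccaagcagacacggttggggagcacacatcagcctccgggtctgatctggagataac
Trim25, chr11:88999153-88999402 (+): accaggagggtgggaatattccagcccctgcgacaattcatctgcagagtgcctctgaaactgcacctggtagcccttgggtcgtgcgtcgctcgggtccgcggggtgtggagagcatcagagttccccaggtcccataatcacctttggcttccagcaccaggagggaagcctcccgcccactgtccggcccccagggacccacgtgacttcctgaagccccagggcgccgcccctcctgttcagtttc
Samd9l, chr6:3399572-3399821 (-): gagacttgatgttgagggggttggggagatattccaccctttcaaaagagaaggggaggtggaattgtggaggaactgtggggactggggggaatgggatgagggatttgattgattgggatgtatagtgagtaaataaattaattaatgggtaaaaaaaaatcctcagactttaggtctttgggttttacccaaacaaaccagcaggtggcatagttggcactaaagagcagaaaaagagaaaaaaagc
Sp100, chr1:85649738-85649987 (+): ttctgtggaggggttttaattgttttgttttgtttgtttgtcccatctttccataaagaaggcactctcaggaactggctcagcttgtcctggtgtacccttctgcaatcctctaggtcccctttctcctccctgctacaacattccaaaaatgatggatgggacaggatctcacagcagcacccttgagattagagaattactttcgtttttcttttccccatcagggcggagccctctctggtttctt

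Each of the 3 IFIT promoters shown held 2 ISRE cores with the same letters, TTTCACTTTC followed by TTTCAGTTTC. The window of Ifit2, the remaining IFIT member, held 0 ISRE cores and 1 GAS core, and Ifit2 changed by 5.12 at LPS day 1. The windows of Irf7, Irf9, Trim25, Samd9l and Sp100 held neither motif, which says only that these letters are not in these 250 bases. The Irf9 window follows its RefSeq start and lies inside the gene as annotated for the symbols, which begins at base 55603571. A pair of further promoters, chosen after the matches were seen, shows other arrangements. In Isg15 there were 3 overlapping ISRE cores on the opposite strand between 78 and 57 bases before the start, and in Irf1 a GAS core lay 90 to 82 bases before the start.
Isg15, chr4:156200819-156201068 (-): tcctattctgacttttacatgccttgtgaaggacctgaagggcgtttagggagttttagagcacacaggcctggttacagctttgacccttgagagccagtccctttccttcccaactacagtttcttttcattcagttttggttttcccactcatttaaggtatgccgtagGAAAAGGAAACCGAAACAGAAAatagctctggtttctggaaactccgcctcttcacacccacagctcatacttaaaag
Irf1, chr11:53769764-53770013 (+): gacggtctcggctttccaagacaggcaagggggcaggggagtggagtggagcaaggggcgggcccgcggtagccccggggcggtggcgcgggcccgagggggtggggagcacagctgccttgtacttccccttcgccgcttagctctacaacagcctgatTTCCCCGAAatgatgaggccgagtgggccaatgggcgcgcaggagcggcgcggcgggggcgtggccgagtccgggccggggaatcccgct

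The libraries held 20910394 to 30368985 estimated reads each. Levels are given as CPM, read counts scaled to a common library size after TMM adjustment, and changes are log2 fold changes ± standard error (SE) from edgeR's quasi-likelihood test. A gene was called when its two-sided p, adjusted by Benjamini-Hochberg over all genes tested, was under 0.05. Cardiomyocyte markers, 7 genes that include Myh6 and Ttn, summed to at least 41410 CPM in every library. In bulk tissue such as this, fewer cells of a type and less RNA per cell cannot be told apart.

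One day after LPS, 45 of the 46 genes were higher than at LPS baseline, where 33.2% of all genes tested were called higher, 33% lower and 66.2% in either direction. The median change of the 46 was 2.93 on the log2 scale, against 0 over all genes, and the range was 0.13 to 6.78. In the same 45 genes every LPS day 1 library stood above every LPS baseline library, against 29.3% of all genes tested. At least a 2-fold rise was seen in 42 genes and at least an 8-fold rise in 22. The remaining gene was Sp100, a nuclear body protein, at 22.9, 19.03, 19.4 and 24.1 CPM in LPS day 1 hearts and 19.4, 17.9, 19.7 and 21.2 CPM in LPS baseline hearts. Its libraries overlapped, and its change was 0.13 ± 0.11 (SE; edgeR adjusted p = 0.315).

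The IFIT proteins, which bind viral RNA and block its translation, included the 3 largest changes among the 46, those of Ifit3b, Ifit3 and Ifit1. Ifit3 stood at 997, 886, 856 and 778 CPM in LPS day 1 hearts, against 7.93, 9.17, 8.89 and 10.99 CPM in LPS baseline hearts. Ifit1 stood at 391, 307, 279 and 234 CPM in LPS day 1 hearts, against 4.2, 4.24, 3.48 and 5.42 CPM in LPS baseline hearts. The lowest LPS day 1 library of either gene was far above the highest baseline library. Ifit3b stood at 342, 328, 262 and 242 CPM in LPS day 1 hearts, against 1.77, 3.14, 2.69 and 3.12 CPM in LPS baseline hearts, also far apart. Changes were 6.57 ± 0.24 for Ifit3, 6.13 ± 0.21 for Ifit1, 5.12 ± 0.16 for Ifit2 and 6.78 ± 0.17 for Ifit3b (SE). Ifit3 and Ifit3b lie side by side on chromosome 19, and 61.8% of the 31-base words in Ifit3 transcripts also occur in Ifit3b, so how reads were split between these paralogues is uncertain. Of the 46 genes, 17 overlap a gene on the opposite strand, Irf7 (with Phrf1) and Adar (with Chrnb2) among them, and reads of such pairs cannot be told apart without strand.

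Among the transcription factors, Irf7, which amplifies type I interferon responses, had 479, 426, 489 and 437 CPM in LPS day 1 hearts, against 8.94, 9.75, 10.5 and 11.5 CPM in LPS baseline hearts. That was a change of 5.49 ± 0.19 (SE; edgeR adjusted p = 1.16e-16). Of the listed ISGF3 subunits, Stat2 rose by 2.81 ± 0.10 and Irf9 by 1.45 ± 0.10 (SE). Stat2 stood at 99.7, 88.02, 74.2 and 92.3 CPM in LPS day 1 hearts and at 12.7, 12.8, 13.4 and 11.9 CPM in LPS baseline hearts. Irf9 stood at 35.9, 34.3, 31.6 and 37.7 CPM in LPS day 1 hearts and at 12.96, 11.5, 13.7 and 12.9 CPM in LPS baseline hearts. Irf1, an early factor of interferon-gamma signalling, was split in pairs, with 159 and 162 CPM in LPS day 1 replicates 1 and 2, 63.5 and 99.8 CPM in replicates 3 and 4, and 16.7 to 19.8 CPM at LPS baseline. All 4 still lay above baseline, and the change was 2.72 ± 0.19 (SE). The split was not particular to Irf1, since the same pairs of LPS day 1 libraries were closest over genes at large. Chi-square per degree of freedom between their read counts was 12.9 for replicates 1 and 2 and 10.2 for replicates 3 and 4. Across the split it was 29.5 to 44.5.

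The ISG15 system attaches the ubiquitin-like protein ISG15 to other proteins and removes it again. Isg15 stood at 92.0, 74.9, 82.2 and 74.03 CPM in LPS day 1 hearts, against 2.39, 2.64, 3.001 and 2.53 CPM in LPS baseline hearts, a change of 4.94 ± 0.20 (SE). Usp18, the protease that removes ISG15 and restrains the type I receptor, had 56.7, 45.8, 42.8 and 34.4 CPM in LPS day 1 hearts, against 2.03, 2.71, 2.53 and 1.66 CPM in LPS baseline hearts. No library of one group reached the other group in either gene. Herc6, the ISG15 ligase of the mouse, rose by 3.37 ± 0.22 and Trim25, a ubiquitin ligase that acts on RIG-I, by 1.30 ± 0.08 (SE).

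All 7 sensors of foreign nucleic acid and enzymes of double-stranded RNA rose, by 1.65 for Adar, the RNA-editing adenosine deaminase, to 4.49 for Zbp1, a sensor of Z-form nucleic acid linked to necroptosis. Zbp1 had 19.5, 15.3, 15.9 and 17.9 CPM in LPS day 1 hearts, against 0.616, 0.765, 0.869 and 0.791 CPM in LPS baseline hearts. Ddx58 (RIG-I) had 86.4, 84.9, 78.2 and 76.8 CPM in LPS day 1 hearts, against 10.7, 9.63, 13.2 and 11.4 CPM in LPS baseline hearts. These 2 sensors differed in level at baseline, and neither overlapped between the groups. Ifih1 (MDA5) stood at 76.9, 60.2, 83.8 and 69.9 CPM in LPS day 1 hearts, against 9.63, 9.94, 9.95 and 10.6 CPM in LPS baseline hearts. Eif2ak2 (PKR, a kinase that halts translation) stood at 86.3, 73.7, 66.9 and 74.7 CPM in LPS day 1 hearts, against 9.89, 8.98, 9.44 and 9.69 CPM in LPS baseline hearts. Their changes were 2.86 ± 0.12 and 2.99 ± 0.10 (SE), both without overlap. Tlr3, the endosomal receptor for double-stranded RNA, had 41.9, 34.8, 37.8 and 33.1 CPM in LPS day 1 hearts, against 6.59, 7.88, 7.03 and 7.63 CPM in LPS baseline hearts. Adar had 53.9, 49.3, 46.03 and 51.8 CPM in LPS day 1 hearts, against 14.9, 17.01, 16.9 and 15.3 CPM in LPS baseline hearts. Both were separated from baseline, and Dhx58 (LGP2, a regulator of RIG-I and MDA5) rose by 3.51 ± 0.21 (SE).

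The 6 OAS genes, of a family whose active enzymes make the messenger of RNase L activation, ranged widely. Oasl1, known in the mouse as a translational repressor of Irf7, changed by 4.90 ± 0.27, whereas Oas2 changed by 0.90 ± 0.23 (SE). Oas2 stood at 9.003, 7.47, 5.42 and 6.63 CPM in LPS day 1 hearts, against 2.97, 3.096, 4.11 and 5.18 CPM in LPS baseline hearts, so its lowest treated library lay just above its highest baseline library. Of the 31-base words of Oas1a, 68.7% also occur in Oas1g, and the split of reads between that pair is uncertain. The dynamin-like GTPase Mx1, which C57BL/6 mice are known to carry in a defective form, had 6.66, 3.69, 2.57 and 2.94 CPM in LPS day 1 hearts, against 0.145, 0.268, 0.158 and 0.435 CPM in LPS baseline hearts. Replicate 1 was the highest of the 4 treated hearts, and all 4 were above baseline. Mx2, annotated as a polymorphic pseudogene, changed by 4.65 ± 0.26 (SE).

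Rsad2 (viperin, which makes a chain-terminating nucleotide) had 326, 259, 242 and 202 CPM in LPS day 1 hearts, against 14.8, 19.0, 17.3 and 16.2 CPM in LPS baseline hearts. Its neighbour on chromosome 12, Cmpk2, a nucleotide kinase that supplies the substrate, had 50.4, 33.5, 29.5 and 34.7 CPM in LPS day 1 hearts, against 8.55, 9.17, 10.8 and 9.37 CPM in LPS baseline hearts. Both were separated from baseline, with changes of 3.93 ± 0.18 and 1.97 ± 0.15 (SE). Ifitm3, which blocks viral entry at endosomes, had 419, 400, 308 and 290 CPM in LPS day 1 hearts, against 46.2, 45.7, 52.6 and 49.95 CPM in LPS baseline hearts. Bst2 (tetherin, which holds budding virions) had 73.1, 60.1, 66.6 and 66.1 CPM in LPS day 1 hearts, against 10.8, 10.2, 11.7 and 11.5 CPM in LPS baseline hearts. Ly6e, a membrane-anchored protein that restricts coronavirus entry, had 282, 242, 244 and 226 CPM in LPS day 1 hearts, against 129, 133, 147 and 137 CPM in LPS baseline hearts. Ly6e thus rose by 0.86 ± 0.08 (SE) from a high starting level, and all 3 genes were without overlap.

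Parp9, Parp14 and Dtx3l, ADP-ribosyltransferases and a partner ubiquitin ligase, rose by 3.88, 3.39 and 3.15. Parp9 and Dtx3l overlap on opposite strands, and with no strand setting given their shared reads cannot be told apart. Slfn5 and Slfn8 of the Schlafen family rose by 1.62 and 2.44. Of the 9 other effectors and regulators 8 rose, led by Xaf1 (an apoptosis factor) at 4.18 ± 0.13, and Samd9l, an antiviral and growth-restraining protein, rose least at 0.77 ± 0.13 (SE). Ifi44 had 37.5, 29.9, 32.9 and 27.8 CPM in LPS day 1 hearts, against 3.11, 2.68, 3.08 and 3.01 CPM in LPS baseline hearts, with no overlap.

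**Figure D1:**
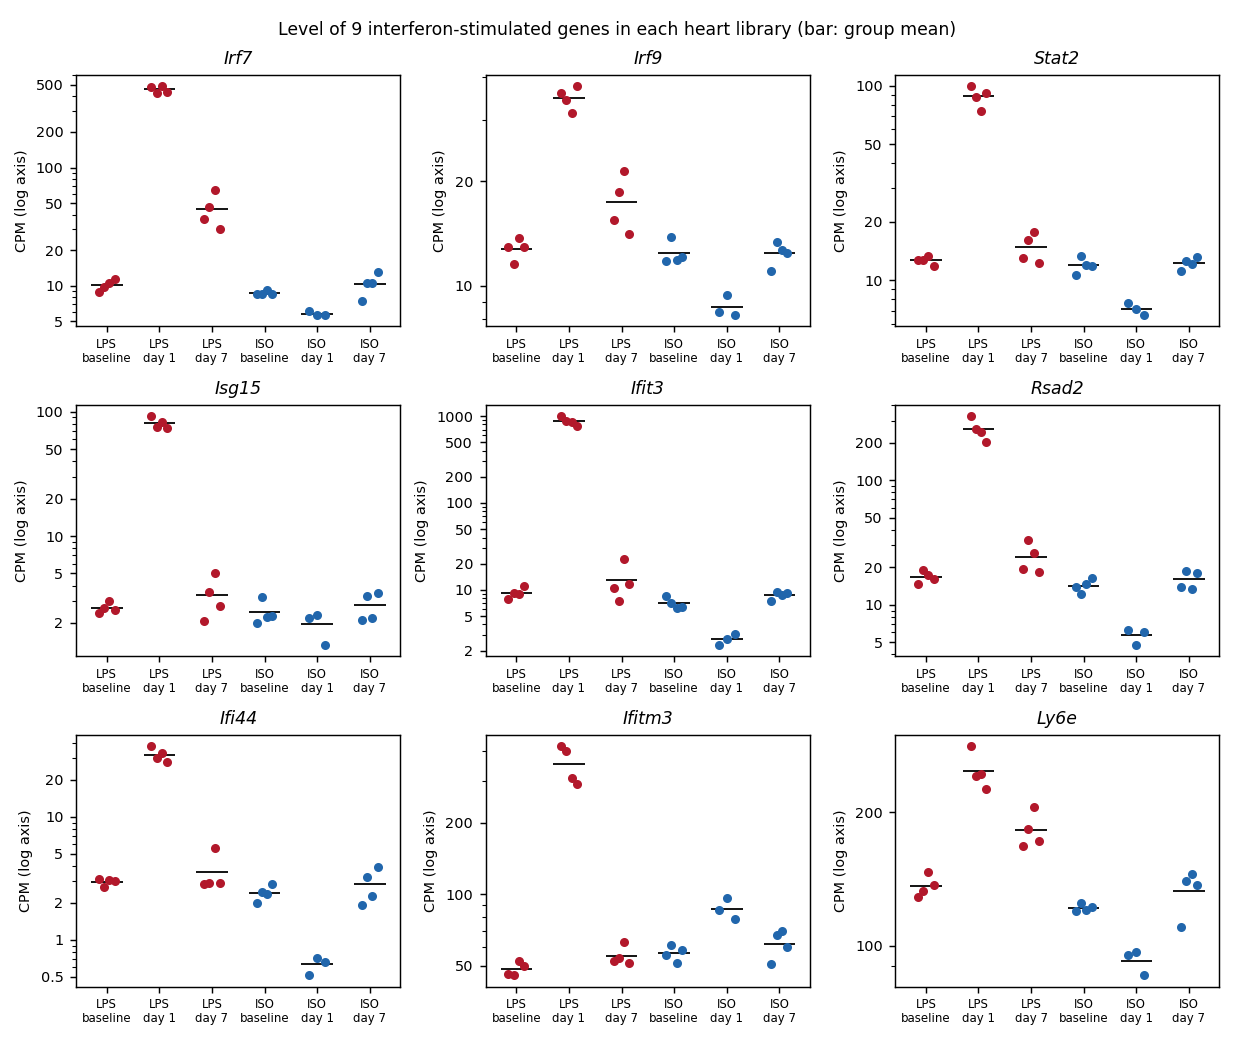
CPM on log axes of 9 interferon-stimulated genes in each of the 23 heart libraries, by group in time order within the LPS arm (red) and the ISO arm (blue), with bars at group means. LPS day 1 libraries stand above all others in each panel, Irf7 stays raised at LPS day 7 (30.1 to 64.3 CPM, against 8.94 to 11.5 CPM at LPS baseline), and 7 of the 9 genes are lower at ISO day 1, the exceptions being Isg15 and Ifitm3.

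Set per length as TPM, the 46 genes together held a mean of 3647 TPM in LPS day 1 hearts and 462 TPM in LPS baseline hearts. At LPS day 1 the highest mean levels were those of Ifitm3 (717 TPM), Ifit3 (596 TPM) and Irf7 (306 TPM). At LPS baseline Ly6e (156 TPM) and Ifitm3 (102 TPM) led, and together these 2 genes made up 33.7% and 22.02% of the summed TPM of the 46. The median LPS day 1 change was 2.70 in the 14 members whose promoter window holds an ISRE core and 2.86 in the 22 without one.

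**Figure D2:**
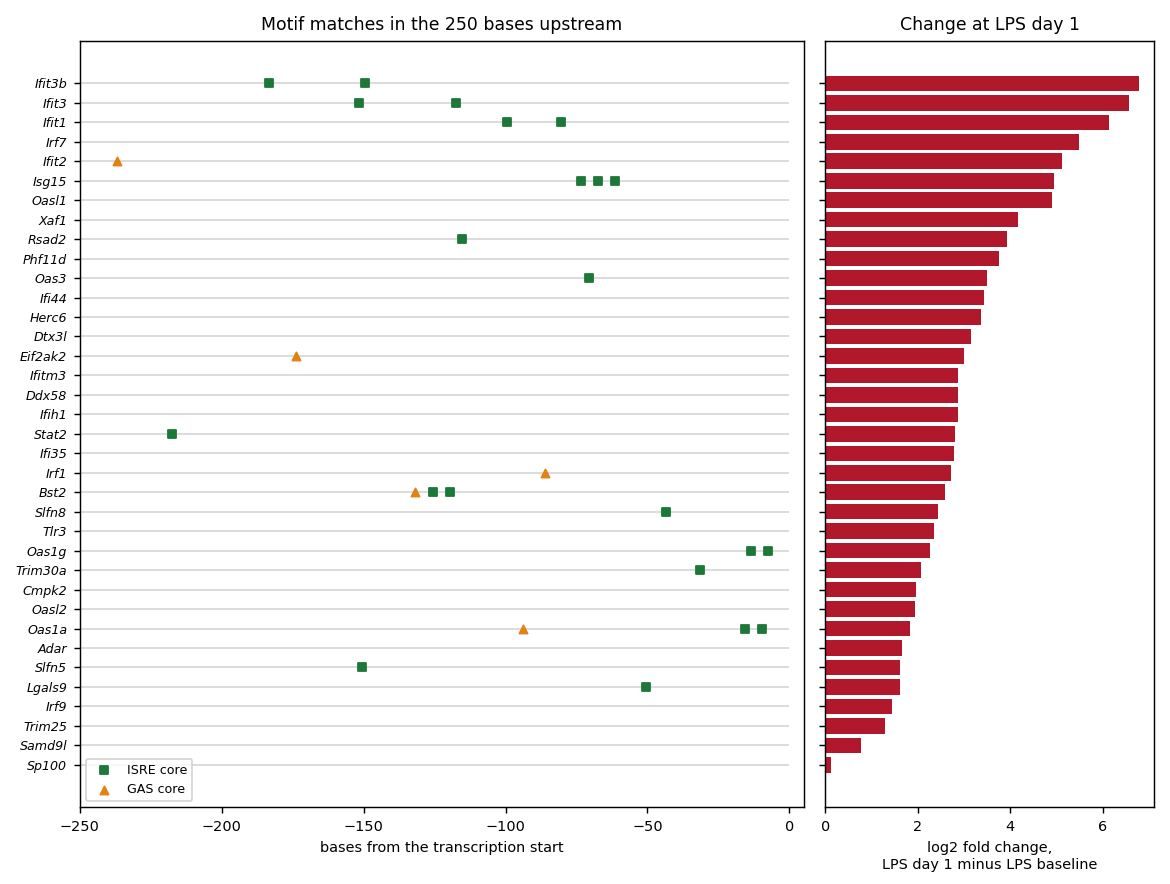
Left, positions of ISRE core (squares) and GAS core (triangles) matches in the 250 bases upstream of the start of 36 interferon-stimulated genes, ordered by LPS day 1 change; right, that log2 fold change (LPS day 1 minus LPS baseline). The 3 top genes hold 2 ISRE cores each and the 4 bottom genes hold none, and genes with and without a core are interspersed between them (medians 2.70 and 2.86).

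LPS day 1 replicate 1 had the highest level of the 4 libraries in 34 of the 46 genes, whereas it was highest in 20.2% of all genes tested. With replicates 1 and 2 left out the median change was 2.92, and with replicates 3 and 4 left out it was 3.10, and 45 genes were called either way. Neutrophil markers (8 genes, 2 of them too low for testing) summed to 8.21 to 13.5 CPM in LPS day 1 hearts, against 1.41 to 1.70 CPM in LPS baseline hearts, and all 6 tested rose. Macrophage markers (8 genes, of which 2 rose and 3 fell) summed to 62.1 to 85.6 CPM in LPS day 1 hearts, against 119 to 139 CPM in LPS baseline hearts. Cardiomyocyte markers (6 of 7 fell) summed to 41410 to 49390 CPM in LPS day 1 hearts, against 63880 to 69280 CPM in LPS baseline hearts. Plasmacytoid dendritic cell markers (Siglech, Ccr9 and Klk1, none high enough for testing) held 20 reads in all LPS day 1 libraries together, all of them of Ccr9, and 25 in all LPS baseline libraries, 15 of Siglech and 10 of Ccr9. NK and T cell markers (5 of 9 tested rose) summed to 1.95 to 3.05 CPM in LPS day 1 hearts, against 1.19 to 1.34 CPM in LPS baseline hearts, and B cell markers (1 of 3 tested fell) to 0.889 to 2.07 CPM in LPS day 1 hearts, against 3.94 to 6.26 CPM in LPS baseline hearts. The part of these cells in the change of the 46 genes was not tested.

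By day 7 after LPS, 17 of the 46 genes were still called higher than at LPS baseline, where 5.96% of all genes tested were called higher, 3.13% lower and 9.1% in either direction. No member was called lower, all 46 fold changes were positive, and their median was 0.42, against 0.003 over all genes. The 17 were Irf7, Irf9, Usp18, Ifit1, Ifit2, Ifit3b, Zbp1, Oas3, Oasl1, Rsad2, Bst2, Ly6e, Parp9, Parp14, Slfn8, Xaf1 and Samd9l. Of these, Oas3, Rsad2 and Parp9 lost their calls whichever LPS baseline heart was left out. The same genes lost them with DESeq2 size factors, a replicate block, effective-length offsets and limma-voom. In 16 of the 46 genes all LPS day 7 libraries lay above all LPS baseline libraries, against 10.7% of all genes tested. Compared with LPS day 1, 44 genes were lower at LPS day 7 (32.5% of all genes tested were lower and 66.4% were called in either direction), with a median change of -2.66. In 43 of the 46 every LPS day 7 library lay below every LPS day 1 library, against 28% of all genes tested. The 2 genes not called in that comparison were Samd9l and Sp100. Ly6e lost its call there with both log2(TPM) fits. Its mean was 281 TPM in LPS day 1 hearts and 242 TPM in LPS day 7 hearts. Oas2 was called lower although its groups overlapped, at 2.57, 3.604, 7.33 and 4.66 CPM in LPS day 7 hearts and 9.003, 7.47, 5.42 and 6.63 CPM in LPS day 1 hearts, and its call was lost in several alternatives, among them library totals as scaling, both log2(TPM) fits and leaving out LPS day 1 replicate 1. Sp100 stood at 17.2, 22.6, 24.8 and 17.1 CPM in LPS day 7 hearts and 22.9, 19.03, 19.4 and 24.1 CPM in LPS day 1 hearts, which overlapped.

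Irf7 had the largest fold change at LPS day 7, with 36.4, 46.2, 64.3 and 30.1 CPM in LPS day 7 hearts, against 8.94, 9.75, 10.5 and 11.5 CPM in LPS baseline hearts. The groups did not overlap, and the change was 2.12 ± 0.17 (SE; edgeR adjusted p = 3.46e-08). Zbp1 stood at 1.23, 1.54, 2.88 and 1.81 CPM in LPS day 7 hearts, against 0.616, 0.765, 0.869 and 0.791 CPM in LPS baseline hearts, again without overlap, and changed by 1.30 ± 0.30 (SE). Oasl1 stood at 1.47, 2.63, 4.49 and 2.93 CPM in LPS day 7 hearts, against 1.01, 1.22, 1.86 and 1.23 CPM in LPS baseline hearts. Its groups overlapped, since replicate 1 at day 7 lay below the highest baseline heart, and its change was 1.13 ± 0.30 (SE). Oas3 changed by 1.73 ± 0.55 (SE) at under 2 CPM in every LPS day 7 library.

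Counted as CPM above LPS baseline, the median member kept 4.14% of its day 1 rise at day 7, and 36 of the 46 kept under 10%. Ly6e kept 41.1%, with 168, 184, 206 and 172 CPM in LPS day 7 hearts and 129, 133, 147 and 137 CPM in LPS baseline hearts, all 4 above the highest baseline library. Samd9l kept 61.3%, with 10.3, 13.6, 18.3 and 13.1 CPM in LPS day 7 hearts and 8.04, 9.56, 9.83 and 11.2 CPM in LPS baseline hearts, which overlapped. Sp100, which was called at neither day, is the other gene above 25%. Irf7 kept 7.61% of a much larger rise, Isg15 0.918% and Ifit3 0.441%. Isg15 stood at 2.08, 3.53, 5.09 and 2.73 CPM in LPS day 7 hearts, against 2.39, 2.64, 3.001 and 2.53 CPM in LPS baseline hearts. The 2 groups overlapped, and Isg15 was not called.

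The count at LPS day 7 depended on 1 heart. LPS day 7 replicate 3 had the highest level of the 4 in 42 of the 46 genes, whereas it was highest in 25.3% of all genes tested. Without it, Irf7, Ifit3b and Ly6e were the 3 genes still called, the median change was 0.24, and the changes of these genes were 1.89, 0.91 and 0.36. Across all genes, leaving it out took the calls to 456 higher and 165 lower, against 938 and 493 with it. Leaving out an LPS baseline heart also cost calls, with 8 genes called without replicate 1, 10 without replicate 2, and 11 without replicate 4. Under scaling by library totals 29 of the 46 were called higher, and that scaling moved the median of all genes in this comparison to 0.16 and the calls over all genes to 2421 higher and 90 lower.

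Marker sums differed at LPS day 7 as well. Macrophage markers (7 of 8 called higher) summed to 203 to 255 CPM in LPS day 7 hearts, against 119 to 139 CPM in LPS baseline hearts. NK and T cell markers (11 genes, 9 tested, 8 called higher) summed to 11.4 to 14.3 CPM in LPS day 7 hearts, against 1.19 to 1.34 CPM in LPS baseline hearts. B cell markers (1 of 3 tested called higher) summed to 7.43 to 11.9 CPM in LPS day 7 hearts, against 3.94 to 6.26 CPM in LPS baseline hearts. Fibroblast markers (0 of 6 called) summed to 825 to 865 CPM in LPS day 7 hearts, against 579 to 720 CPM in LPS baseline hearts. LPS day 7 replicate 3 had the highest macrophage sum, 255 CPM, and the highest recruited monocyte sum, 101 CPM, of its group. The part of these cells in the member levels was not tested.

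**Figure D3:**
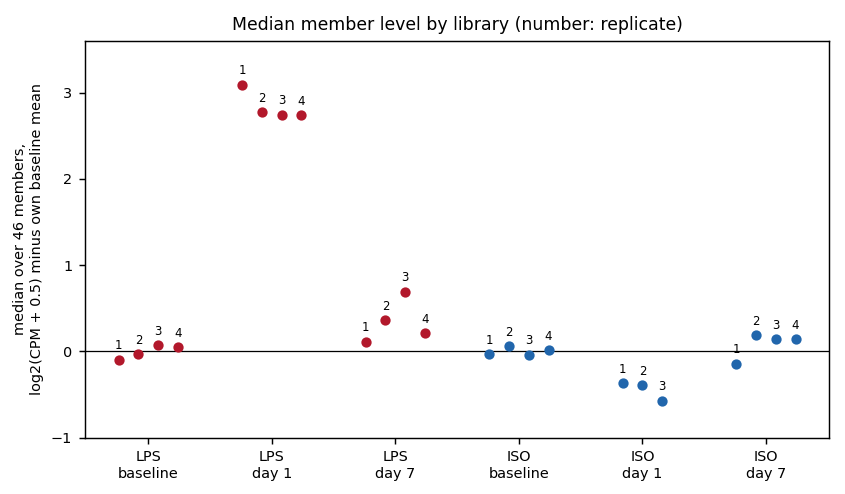
For each library, the median over the 46 genes of log2(CPM + 0.5) minus the mean of the untreated libraries of its own arm, with replicate numbers above the points and the groups in time order within each arm. LPS day 1 libraries lie at 2.74 to 3.09, LPS day 7 libraries at 0.11 to 0.69 with replicate 3 highest, ISO day 1 libraries at -0.57 to -0.37, and ISO day 7 libraries at -0.14 to 0.19.

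One day after isoproterenol, 26 of the 46 genes were lower than at ISO baseline, where 32.8% of all genes tested were lower, and 1 was higher, where 32.9% of all genes were higher and 65.7% were called in either direction. The median change was -0.57, against -0.02 over all genes. In 30 genes every ISO day 1 library lay below every ISO baseline library, against 33.3% of all genes tested, and in 2 every one lay above, against 33.4%. The called falls reached at least 2-fold in 8 genes. Of the 26 genes that fell, 25 had risen at LPS day 1, and Sp100 is the other. In the full list 45 of the 46 had risen there.

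The largest called fall was that of Ifi44, an interferon-induced protein that restrains cell proliferation, at 0.518, 0.715 and 0.666 CPM in ISO day 1 hearts, against 2.002, 2.47, 2.37 and 2.85 CPM in ISO baseline hearts, a change of -1.91 ± 0.31 (SE; edgeR adjusted p = 1.25e-05). Ifit3b stood at 0.863, 0.919 and 0.542 CPM in ISO day 1 hearts, against 2.26, 2.52, 2.45 and 2.09 CPM in ISO baseline hearts. Cmpk2 stood at 2.07, 2.15 and 2.62 CPM in ISO day 1 hearts, against 6.15, 6.01, 6.56 and 7.59 CPM in ISO baseline hearts. None of these genes overlapped between the groups, and the last 2 changed by -1.56 ± 0.29 and -1.53 ± 0.21 (SE). Rsad2, beside Cmpk2, stood at 6.25, 4.77 and 6.04 CPM in ISO day 1 hearts, against 13.8, 12.1, 14.7 and 16.4 CPM in ISO baseline hearts, also without overlap.

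All 4 IFIT genes fell, and so did 3 of the 4 transcription factors. Ifit3 stood at 2.33, 2.76 and 3.08 CPM in ISO day 1 hearts, against 8.599, 7.08, 6.11 and 6.34 CPM in ISO baseline hearts. Ifit1 stood at 1.98, 1.77 and 1.54 CPM in ISO day 1 hearts, against 3.86, 3.73, 3.19 and 3.38 CPM in ISO baseline hearts. Both were separated from baseline, by -1.37 ± 0.29 for Ifit3 and -1 ± 0.29 for Ifit1 (SE). Stat2 stood at 7.68, 7.15 and 6.66 CPM in ISO day 1 hearts, against 10.7, 13.3, 12.0 and 11.9 CPM in ISO baseline hearts. Irf9 stood at 8.41, 9.43 and 8.25 CPM in ISO day 1 hearts, against 11.8, 13.8, 11.9 and 12.1 CPM in ISO baseline hearts. Both of these ISGF3 subunits were thus lower in each treated heart, by -0.74 ± 0.12 and -0.51 ± 0.12 (SE). Irf7 stood at 6.08, 5.72 and 5.71 CPM in ISO day 1 hearts, against 8.49, 8.49, 9.19 and 8.58 CPM in ISO baseline hearts. The groups did not overlap and the change was -0.58 ± 0.21 (SE; edgeR adjusted p = 0.0184), a call that was lost without ISO day 1 replicate 2, with limma-voom, with effective-length offsets and with both log2(TPM) fits. Irf1 had 15.7, 14.7 and 15.1 CPM in ISO day 1 hearts and 18.7, 17.02, 20.9 and 19.9 CPM in ISO baseline hearts. These groups did not overlap, and Irf1 was not called in the fit of all groups.

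Other groups were mixed. Of the 3 membrane proteins, Bst2 and Ly6e fell and Ifitm3 was the 1 member that rose. Bst2 stood at 5.09, 5.89 and 3.67 CPM in ISO day 1 hearts, against 11.2, 11.01, 10.8 and 10.97 CPM in ISO baseline hearts. Ly6e stood at 95.1, 96.5 and 85.8 CPM in ISO day 1 hearts, against 119, 125, 120 and 122 CPM in ISO baseline hearts. Ifitm3 went the other way, at 85.8, 96.0 and 78.4 CPM in ISO day 1 hearts, against 55.7, 61.1, 51.6 and 58.3 CPM in ISO baseline hearts. All 3 were without overlap, with changes of -1.16 ± 0.16, -0.40 ± 0.09 and 0.61 ± 0.12 (SE).

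Of the 7 sensors and enzymes of double-stranded RNA, Eif2ak2, Ifih1 and Tlr3 fell, by -0.62, -0.40 and -0.38. Eif2ak2 stood at 6.73, 5.52 and 5.08 CPM in ISO day 1 hearts, against 8.71, 8.87, 9.22 and 8.58 CPM in ISO baseline hearts, with no overlap. Ddx58 was not called, with a change of -0.06 ± 0.15, and Adar was not called, with 0.06 ± 0.09 (SE). Parp9, Parp14 and Dtx3l all fell, by -0.64, -0.32 and -1.02, as did Oas1a, Oas2 and Oasl2 among the 6 OAS genes. The calls of Ifih1, Parp14 and Oasl2 were each lost under other tests or with 1 heart left out, Ifih1 and Parp14 under both log2(TPM) fits and without ISO day 1 replicate 3, and Oasl2 with limma-voom and without the same heart. Tlr3 lost its call without ISO baseline replicate 4, and Oas2 with log2(TPM + 1). Over the 46 genes, the 26 lower calls became 23 with limma-voom, 21 with log2(TPM + 0.1) and 20 with log2(TPM + 1). Other settings added lower calls. Irf1, Usp18, Herc6 and Lgals9 were added with the compared groups fitted alone, and Herc6, Mx2 and Lgals9 with the baselines of both arms pooled. Oas2 stood at 1.42, 1.63 and 1.75 CPM in ISO day 1 hearts, against 2.45, 3.103, 3.63 and 3.49 CPM in ISO baseline hearts, with no overlap. Not one of the 4 ISG15 system genes, the 2 Mx genes or the 2 Schlafen genes was called by edgeR in the fit of all groups, although Usp18 and Herc6 lay below ISO baseline and Trim25 above it in every ISO day 1 library. These 3 genes were called when the ISO day 1 and ISO baseline groups were fitted alone, and Mx2 was called lower by DESeq2 and with the baselines of both arms pooled. Isg15 had 2.2, 2.32 and 1.33 CPM in ISO day 1 hearts, against 2.002, 3.25, 2.22 and 2.28 CPM in ISO baseline hearts, and the groups overlapped. Of the 9 other effectors 6 fell, Ifi44, Rtp4, Xaf1, Trim30a, Sp100 and Phf11d. The calls of Trim30a and Phf11d were lost with both log2(TPM) fits. Trim30a also lost its call with limma-voom and without ISO day 1 replicate 1 or 2, and Phf11d with effective-length offsets.

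Marker sums differed at ISO day 1 too. Macrophage markers (2 of 8 rose and 4 fell) summed to 114 to 116 CPM in ISO day 1 hearts, against 126 to 141 CPM in ISO baseline hearts. Resident macrophage markers (2 of 6 rose and 2 fell) summed to 96.1 to 118 CPM in ISO day 1 hearts. Their ISO baseline sums were lower, at 79.5 to 84.9 CPM. Endothelial markers (2 of 6 rose and 2 fell) summed to 797 to 827 CPM in ISO day 1 hearts, above their 670 to 731 CPM at ISO baseline. Cardiomyocyte markers (5 of 7 fell) summed to 50800 to 68820 CPM in ISO day 1 hearts, against 70450 to 75320 CPM in ISO baseline hearts. Neutrophil markers (4 of 6 tested rose) summed to 4.998 to 10.6 CPM in ISO day 1 hearts, against 1.33 to 1.89 CPM in ISO baseline hearts. B cell markers (1 of 3 tested fell) summed to 0.666 to 1.21 CPM in ISO day 1 hearts, against 4.63 to 7.04 CPM in ISO baseline hearts. Fibroblast markers (1 of 6 rose and 3 fell) summed to 463 to 522 CPM in ISO day 1 hearts, against 579 to 632 CPM in ISO baseline hearts. NK and T cell markers (3 of 9 tested fell) summed to 0.583 to 1.06 CPM in ISO day 1 hearts, against 0.970 to 2.04 CPM in ISO baseline hearts, and these sums overlapped. The part of these cells in the falls was not tested.

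**Figure D4:**
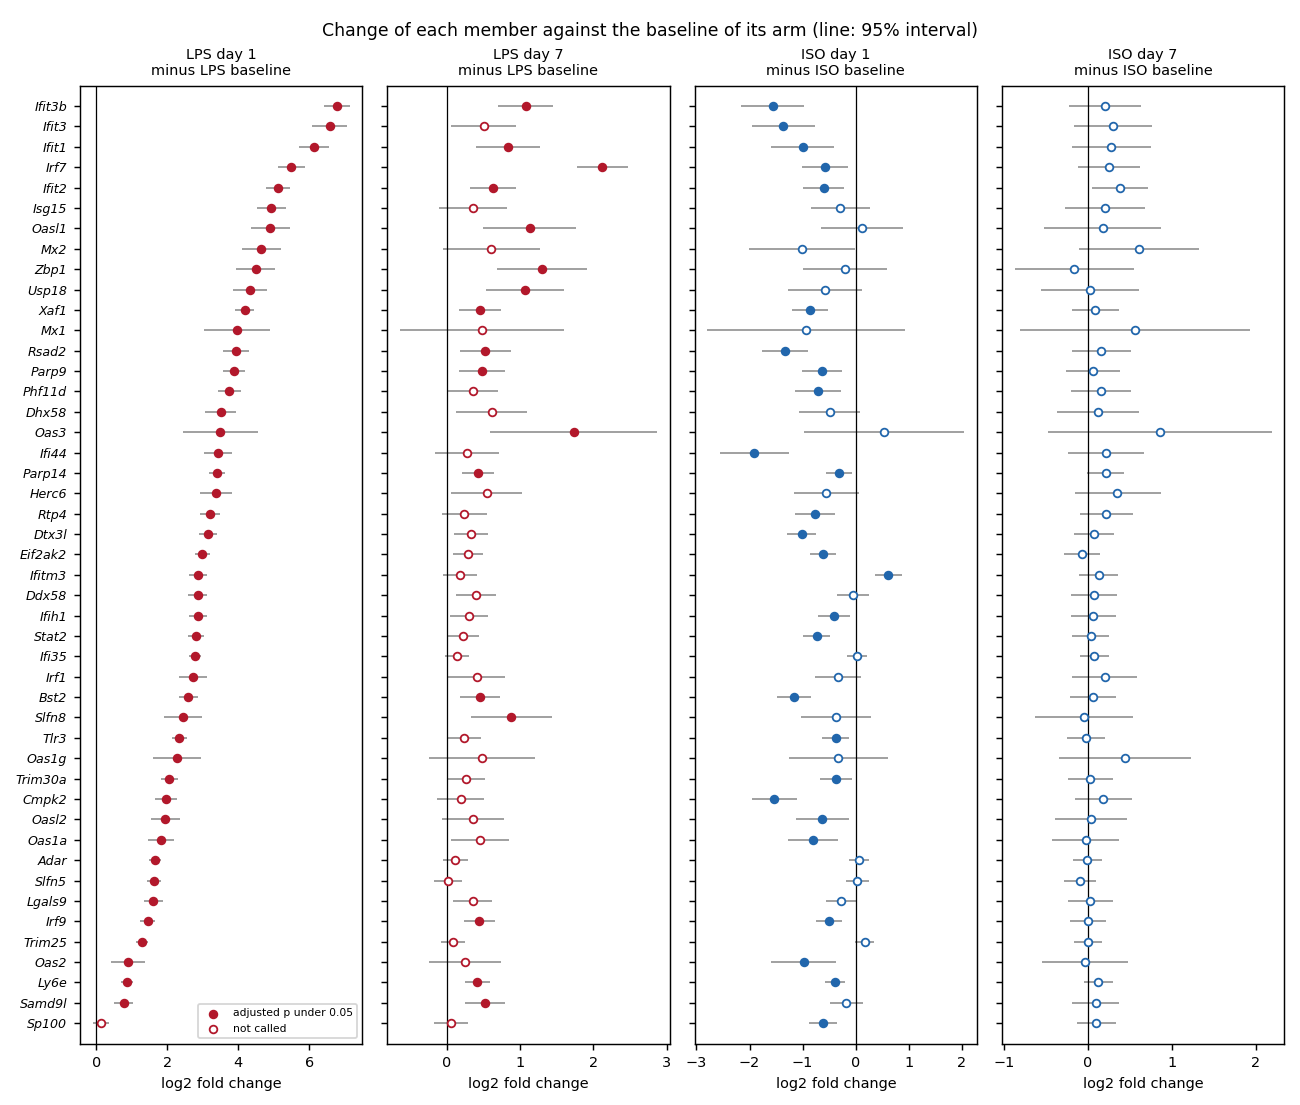
Log2 fold change with 95% interval of each of the 46 genes against the baseline of its arm, ordered by LPS day 1 change; filled points were called (edgeR adjusted p under 0.05) and open points were not, and each panel has its own scale. Called genes number 45 at LPS day 1, 17 at LPS day 7, 27 at ISO day 1 (26 lower and Ifitm3 higher) and 0 at ISO day 7.

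By day 7 after isoproterenol the genes stood near baseline, and none of the 46 was called by edgeR, where 0.00636% of all genes tested were called. At an unadjusted edgeR p under 0.05 there was 1 member, Ifit2, against 863 of the 15732 genes tested, and DESeq2 and limma-voom called 0 members. The median change was 0.10, against 0.005 over all genes, and the range was -0.16 to 0.86. In 3 members, Irf1, Ifit2 and Ifit3b, all ISO day 7 libraries lay above all ISO baseline libraries, against 2.04% of all genes tested. Ifit2 stood at 8.69, 9.64, 9.32 and 10.6 CPM in ISO day 7 hearts, against 7.67, 6.98, 6.93 and 7.71 CPM in ISO baseline hearts. Irf1 stood at 20.99, 23.8, 21.4 and 21.8 CPM in ISO day 7 hearts, against 18.7, 17.02, 20.9 and 19.9 CPM in ISO baseline hearts. Both pairs of groups lay close together without crossing. Compared with ISO day 1, 29 genes were higher at ISO day 7 (33.2% of all genes tested were higher) and Ifitm3 was lower (31.9% were lower and 65.1% were called in either direction). All 26 genes that were low at ISO day 1 are among these 29. Ifi44 had 1.91, 3.23, 2.27 and 3.92 CPM in ISO day 7 hearts, against 0.518, 0.715 and 0.666 CPM in ISO day 1 hearts, without overlap.

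ISO day 7 replicate 1 had the lowest level of its group in 41 of the 46 genes, whereas it was lowest in 28.9% of all genes tested. ISO day 7 replicate 3 had the highest macrophage, recruited monocyte and fibroblast marker sums of its group (249, 196 and 1529 CPM, against at most 137, 65.7 and 632 CPM in the other 3). It was highest in 16 of the 46 genes, near its share of 31.3% of all genes tested.

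The difference between the agents was tested directly, as the LPS change minus the ISO change with each arm against its own baseline. At day 1 it was positive and called for all 46 genes (18.2% of all genes tested were called higher and 37.6% in either direction), with a median of 3.58 and a range of 0.75 to 8.34. Sp100, which moved least after LPS, differed by 0.75 ± 0.17 (SE; edgeR adjusted p = 0.00111), and Ifit3b, at 8.34 ± 0.32 (SE), differed by the largest value of the 46. The call of Sp100 was lost with both log2(TPM) fits, and that of Oas3 without ISO baseline replicate 1. At day 7 it was called for 1 gene, Irf7 (0.362% of all genes tested were called higher and 0.458% in either direction), at 1.87 ± 0.25 (SE; edgeR adjusted p = 0.000266). Irf7 stood at 7.49, 10.5, 10.6 and 12.98 CPM in ISO day 7 hearts, against 8.49, 8.49, 9.19 and 8.58 CPM in ISO baseline hearts, which overlapped, unlike its LPS day 7 libraries. Of the 46 differences 44 were positive, with a median of 0.26. An unadjusted edgeR p under 0.05 was found for 11 members, against 1488 of the 15732 genes tested. The other 45 members were not called in that test, so the 17 genes raised at LPS day 7 are, apart from Irf7, not shown to differ from their ISO day 7 change. The untreated groups are not identical: none of the 46 genes was called by edgeR between LPS baseline and ISO baseline (0.477% of all genes tested were called higher, 0.737% lower and 1.21% in either direction), but 40 of the 46 differences were positive, with a median of 0.14. In 6 members every LPS baseline library lay above every ISO baseline library and in 0 members below, against 5.79% and 5.99% of all genes tested. At an unadjusted edgeR p under 0.05 there were 4 of the 46 members, no larger a share than the 1701 of 15732 genes tested. DESeq2 and limma-voom called 0 members, and 3 were called with the 2 baselines fitted alone.

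Both sets of genes, those raised at LPS day 7 and those lowered at ISO day 1, were drawn from the same 46. Of the 17 genes raised at LPS day 7, 11 were lower at ISO day 1. The other 6 were Usp18, Zbp1, Oas3, Oasl1, Slfn8 and Samd9l. In the full list 26 of the 46 genes were lower at ISO day 1, so 11 of 17 is near the share of the list.

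Genes that act upstream of the 46 were taken from fixed lists. Of 8 interferon genes listed, Ifng had 2, 9 and 1 estimated reads in all LPS day 1, LPS day 7 and LPS baseline libraries together, Ifnb1 had 1 read, in the ISO baseline group, and the other 6 had no read in any group. None passed the count filter, so interferon transcripts were not measurable at this depth at the days sampled. Of 9 receptor and kinase genes, 5 rose and 3 fell at LPS day 1, where Ifnar2 rose by 0.88 and Ifngr2 changed by -1.57. The shares over all genes tested were 33.2% rising and 33% falling at LPS day 1, so the fallers are near that share. At ISO day 1, 4 of the 9 rose and 3 fell, where 32.9% and 32.8% of all genes did, and Ifngr2 changed by -1.53. Of 14 genes that lead to interferon production, 7 rose and 3 fell at LPS day 1, 5 rose and none fell at LPS day 7 (5.96% and 3.13% of all genes), and 8 rose and 2 fell at ISO day 1.

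A further 8 interferon-linked factors were examined. All 8 rose at LPS day 1 and 5 rose at LPS day 7, where 33.2% and 5.96% of all genes tested rose. At ISO day 1 there were 3 that fell and 2 that rose, where 32.8% and 32.9% of all genes tested did. Uba7, which activates ISG15, and Nlrc5, a regulator of MHC class I, changed by 2.66 ± 0.10 and 3.50 ± 0.17 (SE) at LPS day 1 and by -1.57 ± 0.13 and -1.57 ± 0.25 (SE) at ISO day 1. Socs3, an inhibitor of cytokine receptors, rose under both agents, by 3.65 ± 0.32 at LPS day 1 and by 3.93 ± 0.33 at ISO day 1 (SE). Irf8, a transcription factor of myeloid cells, rose by 2.73 ± 0.14 at LPS day 1 and by 0.58 ± 0.16 at ISO day 1 (SE).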

How the data were processed

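RNA-seq of 23 mouse hearts in 6 groups was analysed. Estimated counts (reads per gene, 9.5% of the values not whole) and TPM (levels per transcript length, scaled to one fixed sum per library) are as deposited by the authors, one file per library, with effective lengths beside them per the file headers. Named in the submitters' processing notes are the mm10 build and bcl2fastq, DRAGEN, edgeR and limma, without versions. No source used here gives the annotation release or strandedness of the counting step. Gene symbols came from GENCODE M21 (GRCm38): 55227 of 55487 identifiers matched, and the rest held at most 0.0057% of a library's reads. Mitochondrial genes took 22.3 to 29.3% of reads.

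Estimated counts were rounded and fitted with edgeR 4.0.16 (R 4.3.3, limma 3.58.1): TMM scaling, filterByExpr with a minimum count of 10, 1 model of 6 group means, quasi-likelihood tests and Benjamini-Hochberg adjustment over 15732 genes with a threshold of 0.05. SE is the absolute log2 fold change divided by the square root of F. Tests were checked on simulated data. Alternatives included DESeq2 1.42.0, limma-voom, limma on log2(TPM + 0.1), other scalings and filters, a replicate block and each library left out in turn. P-values measure the spread between these hearts. The 46 genes, the lists and the tests were chosen with earlier results of these data known. Values per library are given for 20 chosen genes and, in each comparison with a baseline, for the 3 largest called changes in each direction among genes whose higher group averaged 1 CPM or more, and for exceptions numbering 5 or fewer; other genes named with library values follow their role. Promoters were read from the RefSeq table with Python 3.11.15, and figures were drawn with matplotlib 3.10.9. One gene of the pathway lists is not reported here.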

Additional observations from a re-analysis of the deposited data

Results flagged for a closer look

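In 25 of the 46 genes, the groups of 4 hearts were searched for 1 heart far from the other 3, and 8 of the 125 groups held one, where chance flags about 1 in 20. LPS day 7 replicate 3 stood high for 3 genes: Usp18 at 7.895 CPM, Eif2ak2 at 13.86 CPM and Ifi44 at 5.579 CPM. In ISO baseline hearts, Irf7 was high in replicate 3 at 9.187 CPM, Irf9 was high in replicate 2 at 13.82 CPM, and Usp18 was high in replicate 2 at 2.57 CPM. Sp100 was low in ISO baseline replicate 4 at 14.12 CPM, and Eif2ak2 was low in ISO day 7 replicate 1 at 7.033 CPM. By a test of the LPS change minus the ISO change, 46 of the 46 genes differed at day 1 and 1, Irf7, at day 7, each with a positive difference. For Sp100 this came with a fall of -0.62 at ISO day 1 and an uncalled change of 0.13 at LPS day 1.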

How the results depend on the processing

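No result for the 46 genes changed direction while called, under any alternative run. Of the gene-level results under alternatives, 8688 stayed on the same side of the threshold, called or not, 86 gained a call and 137 lost one. LPS day 7 against its baseline had more of both than any other comparison, with 52 gained and 67 lost. There, the 17 genes called higher became 29 with library totals as scaling, 28 with the baselines of both arms pooled and 11 with limma-voom, and 3 to 19 with 1 heart left out, where the median change ran from 0.241 to 0.5. The median change of the 46 at LPS day 1 was 2.535 with log2(TPM + 1) and 3.103 without LPS day 1 replicates 3 and 4, an alternative chosen after seeing the data. At ISO day 1, 2 genes were called higher with the compared groups fitted alone, and the median was -0.333 with log2(TPM + 1). For LPS day 7 minus LPS day 1 the median was -2.469 with library totals, -2.388 with log2(TPM + 0.1) and -2.131 with log2(TPM + 1). For ISO day 7 minus ISO day 1, 2 genes were called lower when those groups had their own fit, and log2(TPM + 1) gave a median of 0.38. The median difference between the agents was 3.376 with log2(TPM + 0.1) and 2.684 with log2(TPM + 1) at day 1, and 0.492 with log2(TPM + 0.1) at day 7. Between the baselines, 3 genes (Ifit2, Cmpk2 and Ifi35) were called with these groups fitted alone. A pseudocount of 1 shrinks changes of low genes by construction; the cause of the other shifts was not tested. Over all genes, the LPS day 7 calls, 938 higher and 493 lower, became 2421 and 90 with library totals, 1445 and 1155 when LPS day 7 and LPS baseline were fitted alone, 2035 and 44 with log2(TPM + 0.1) and 2234 and 47 with log2(TPM + 1), and the lower calls became 327 with effective-length offsets, 742 with DESeq2 and 852 with pooled baselines. Library totals moved the median of all genes to 0.161 there. The difference between the agents at day 7, 57 higher and 15 lower, became 106 and 5 with log2(TPM + 1), 88 and 4 with log2(TPM + 0.1), and 93 and 48 with DESeq2. The baseline comparison, 75 higher and 116 lower, became 335 and 366 when only the baselines were fitted, and 138 and 178 with DESeq2. Same-numbered hearts did not deviate together (correlations of -0.118 to 0.082), so the numbers do not pair them, and a replicate block gave 45, 14, 1 and 0 genes higher at LPS day 1, LPS day 7, ISO day 1 and ISO day 7, with 26 lower at ISO day 1. Genes under about 1 CPM, such as Oas3, Mx1 and Zbp1 at baseline, rest on few reads.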
